A study of Mus musculus with 6 samples.

Results

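The serotonin genes described here are 10 mouse genes, 9 for serotonin (5-hydroxytryptamine) receptors and 1 for the plasma membrane serotonin transporter, among 33084 genes in a bulk RNA sequencing table of embryonic forebrain. They were chosen by name after Htr1a and Htr7 had been seen lower in the heterozygotes of these same libraries. Their differences between genotypes are therefore given as a description, with no p-value. Whether they passed in fits over the whole table is stated, but supports nothing about them. The members are Htr1a, Htr1b, Htr1d, Htr1f, Htr2a, Htr2c, Htr3a, Htr6, Htr7 and Slc6a4, and each matched 1 Ensembl identifier. The study compared forebrains of 3 wt and 3 Dyrk1a+/- mouse embryos, all microdissected at embryonic day 15.5 from the Dyrk1a+/- line. The gene codes for a kinase whose dose sets the size of the brain, and the heterozygotes keep 1 working copy. The labels give no treatment, name no promoter or Cre, and do not state the deleted part of the gene, the strain, the sex of the embryos or whether tissue was pooled. They call the libraries biological replicates; litters are not given.

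Serotonin acts through G protein-coupled receptors of several classes and through the Htr3 cation channels. Receptors of the Htr1 class couple to inhibitory G proteins, those of the Htr2 class to phospholipase C, and Htr4, Htr6 and Htr7 to stimulation of adenylyl cyclase. In the embryo, serotonin comes from the placenta and from raphe neurons of the hindbrain, whose axons grow into the forebrain, where receptors are already made by progenitors, migrating interneurons and young neurons. Slc6a4, the target of antidepressants that block reuptake, is also switched on for a time in thalamic neurons that store serotonin without making it.

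Dyrk1a was at 177, 186 and 160 CPM (read counts scaled by effective library size) in wt and at 149, 147 and 158 CPM in Dyrk1a+/- libraries, a ratio of 0.868. All 3 heterozygotes lay below all wt libraries, but the gene did not pass the test (edgeR, Benjamini-Hochberg adjusted p = 0.59), and since the deleted part is not stated, its total count tests the genotype labels poorly. Library totals ran from 18699434 to 32865708 counts. The 3 wt totals were 25270710 or more and the 3 heterozygote totals 25012356 or less, so depth moved with genotype, and its part in the results was not tested. Wt replicate 3 and Dyrk1a+/- replicate 2, 1 library of each genotype, stood apart from the other 4 along the leading principal component (34.9% of the variance). The tissue label was checked on forebrain markers: Neurod6 was at 247 ± 10.7 and 245 ± 11.5 CPM and Dlx1 at 87 ± 6.31 and 98 ± 11.2 CPM in wt and heterozygotes (SD, n = 3). Of the 9 forebrain markers 7 had a log2 fold change above 0 and 2 below, Neurod6 among the 2. Above 0 were 5 without Dyrk1a+/- replicate 3 and 9 without wt replicate 2. Lhx2 was higher without overlap, at 77.4 ± 7.5 and 93.3 ± 11.2 CPM (edgeR adjusted p = 0.591). Emx2 was at 6.58 ± 0.881 and 8.2 ± 0.847 CPM and overlapped (edgeR adjusted p = 0.667). Of 8 matched raphe and hindbrain markers, Hoxb2 had 0 counts in every library, Hoxa2 2, Hoxb3 3, Tph2 29, En1 32 and En2 59 over all 6, while Gata3 had 296 and Lmx1b 375. Gata3 was at 1.83 ± 0.87 and 2.18 ± 0.483 CPM. The 8 summed to 4.44 to 6.74 CPM in wt and 4.11 to 6.44 CPM in heterozygotes, which overlapped.

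The promoter windows shown, those of Htr1a, Htr7, Htr6 and Slc6a4, differed widely in base composition. RefSeq windows on GRCm38.p6, from 250 bases before to 50 after a start site, were matched for 9 of the 10 members; Htr3a was not matched. Those of Htr1a and Htr7 are shown because these genes gave the choice of the family, and those of Htr6 and Slc6a4 as a contrast, with 3 GC boxes each. Another Htr6 window held 0 GC boxes, and an Htr1d window, also not shown, held 4. Only bases upstream of both the RefSeq and the GENCODE start are printed, 5′ to 3′ along the gene's strand, with each GC box (GGGCGG on either strand, overlaps counted) in capitals.
Htr1a, chr13:105443443-105443638, plus strand: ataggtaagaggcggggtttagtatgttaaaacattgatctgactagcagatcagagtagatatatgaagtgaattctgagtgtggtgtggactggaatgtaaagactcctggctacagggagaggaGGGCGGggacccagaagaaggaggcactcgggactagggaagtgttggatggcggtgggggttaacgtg
Htr7, chr19:36057508-36057610, minus strand: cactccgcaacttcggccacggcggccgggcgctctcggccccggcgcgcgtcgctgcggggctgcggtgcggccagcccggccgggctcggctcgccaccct
Htr6, chr4:139075571-139075820, minus strand: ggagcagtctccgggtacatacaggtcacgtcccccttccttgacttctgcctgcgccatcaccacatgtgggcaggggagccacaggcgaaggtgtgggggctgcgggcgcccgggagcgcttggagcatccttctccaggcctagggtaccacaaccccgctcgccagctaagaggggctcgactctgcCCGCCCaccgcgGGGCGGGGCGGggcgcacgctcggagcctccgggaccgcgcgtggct
Slc6a4, chr11:76998347-76998596, plus strand: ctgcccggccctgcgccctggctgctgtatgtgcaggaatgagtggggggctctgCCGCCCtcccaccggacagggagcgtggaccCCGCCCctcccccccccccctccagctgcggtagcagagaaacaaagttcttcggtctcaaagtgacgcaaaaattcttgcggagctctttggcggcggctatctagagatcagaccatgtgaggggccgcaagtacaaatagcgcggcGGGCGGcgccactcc

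The full window of Htr1a had 52.3% G and C, close to the median of 52.7% over all windows. That of Htr7 had 81%, Htr6 71% and Slc6a4 67.7%. A GC box was found in at least 1 window of 6 of the 9 matched members (Htr1a, Htr1d, Htr1f, Htr2a, Htr6 and Slc6a4), and in 38.2% of all 27025 genes with a window. An E-box (CANNTG, both strands) was found in 3 of the 9 (Htr1d, Htr6 and Slc6a4), against 75% of all genes. Of the other motifs searched on both strands, 0 of the 9 held the TATA box TATAAA (15.7% of all genes), the cAMP response element TGACGTCA (2.03%), a palindrome linked to DYRK1A at promoters, not spelled out here (0.525%), or TTCAGCACC, the left part of the RE1 site bound by the repressor REST (0.433%). These are matches of letters in these windows.

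In wt forebrain the 10 genes were expressed at low levels that spanned more than an order of magnitude. Levels between genes are given as CPM per kb of annotated exon, with all exons of a gene joined, and the median of all genes tested was 4.41 CPM per kb on that scale. Htr3a, the subunit of the serotonin-gated channel carried by interneurons of the caudal ganglionic eminence, was highest at 2.63 ± 0.378 CPM per kb (SD, n = 3 wt libraries). Htr2c followed at 1.92 ± 0.379 and Htr7 at 1.79 ± 0.328 CPM per kb, and their wt ranges, 1.48 to 2.18 and 1.45 to 2.11, overlapped each other but not that of Htr3a, 2.21 to 2.94. Next came Htr2a at 0.996 ± 0.026, Htr1b at 0.921 ± 0.183 and Htr1a at 0.809 ± 0.142 CPM per kb. Htr1b overlapped both of its neighbours in this order, while Htr2a lay just above Htr1a. The 4 lowest were Htr1f at 0.282 ± 0.0374, Htr6 at 0.221 ± 0.0888, Slc6a4 at 0.169 ± 0.0311 and Htr1d at 0.143 ± 0.0351 CPM per kb, each overlapping the next. The highest, Htr3a, stood above 38.4% of the genes tested, and Htr1d above 1.92%.

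**Figure D1:**
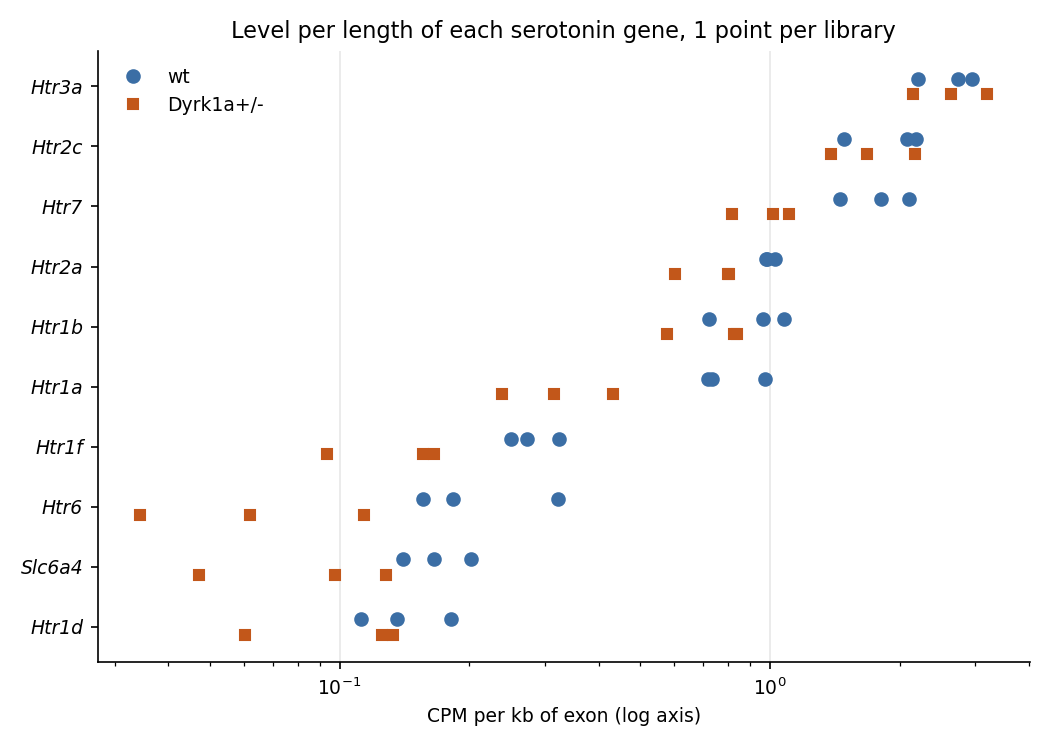
Level of each serotonin gene in CPM per kb of exon (x axis, log scale), with genes ordered by wt mean on the y axis and 1 point per library; circles are wt and squares Dyrk1a+/-. Htr3a is at the top at 2.63 CPM per kb in wt, and the heterozygote points of Htr7 and Htr1a lie to the left of all their wt points.

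The order of the top genes rests on the exon length used. With the length of the longest transcript, 4.88 kb in place of 9.33 kb, Htr2c was at 3.66 CPM per kb and above Htr3a, and Slc6a4 was at 0.274 CPM per kb and above Htr6; this alternative was chosen after the data were seen. In heterozygotes the first 3 genes kept their places, with Htr3a at 2.66, Htr2c at 1.75 and Htr7 at 0.981 CPM per kb, and Htr6 was last at 0.0701.

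Among the Htr1 class, Htr1a had the lowest log2 fold change of the 9 tested members. Htr1a, the inhibitory receptor that also acts as the autoreceptor on raphe cell bodies, is encoded in a single exon block at GRCm38 chromosome 13, 105443639 to 105448122. It was at 3.30, 4.36 and 3.22 CPM in the wt libraries and at 1.93, 1.41 and 1.07 CPM in the Dyrk1a+/- libraries, from 403 counts in all. The groups did not overlap, and the heterozygote mean was 0.405 of the wt mean (log2 fold change -1.29, SE 0.246). Of all genes tested, at any level of expression, 0.134% had a lower log2 fold change. Htr1a was seen lower before the choice, so this rank tests nothing. In bulk RNA, fewer cells that carry a transcript and less of it per cell cannot be told apart, here and for every gene that follows.

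Htr1f, another inhibitory receptor of the class and the target of some migraine drugs, had the same direction at a far lower level. It was at 0.702, 0.833 and 0.645 CPM in wt and 0.242, 0.402 and 0.427 CPM in heterozygotes, with no overlap and a ratio of 0.491 (log2 fold change -1.01, SE 0.34). These values rest on 18 to 23 counts per wt library and 5 to 10 per heterozygote library.

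The terminal autoreceptors Htr1b and Htr1d, which hold back transmitter release, overlapped between genotypes. Htr1b was at 5.10, 4.56 and 3.40 CPM in wt and 3.96, 3.90 and 2.72 CPM in heterozygotes (log2 fold change -0.30, SE 0.211). A gene on the opposite strand, D430036J16Rik, overlaps 852 bases of Htr1b exon and had 257 counts against 607 for Htr1b; the strand setting of the counting is not given in the sources used here. Htr1d was at 0.580, 0.436 and 0.358 CPM in wt and 0.193, 0.402 and 0.427 CPM in heterozygotes (log2 fold change -0.43, SE 0.413), with 62 counts over all libraries. For Htr1d the lowest library was Dyrk1a+/- replicate 1, and without it the log2 fold change was -0.16; without wt replicate 1, the highest, it was -0.21.

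**Figure D2:**
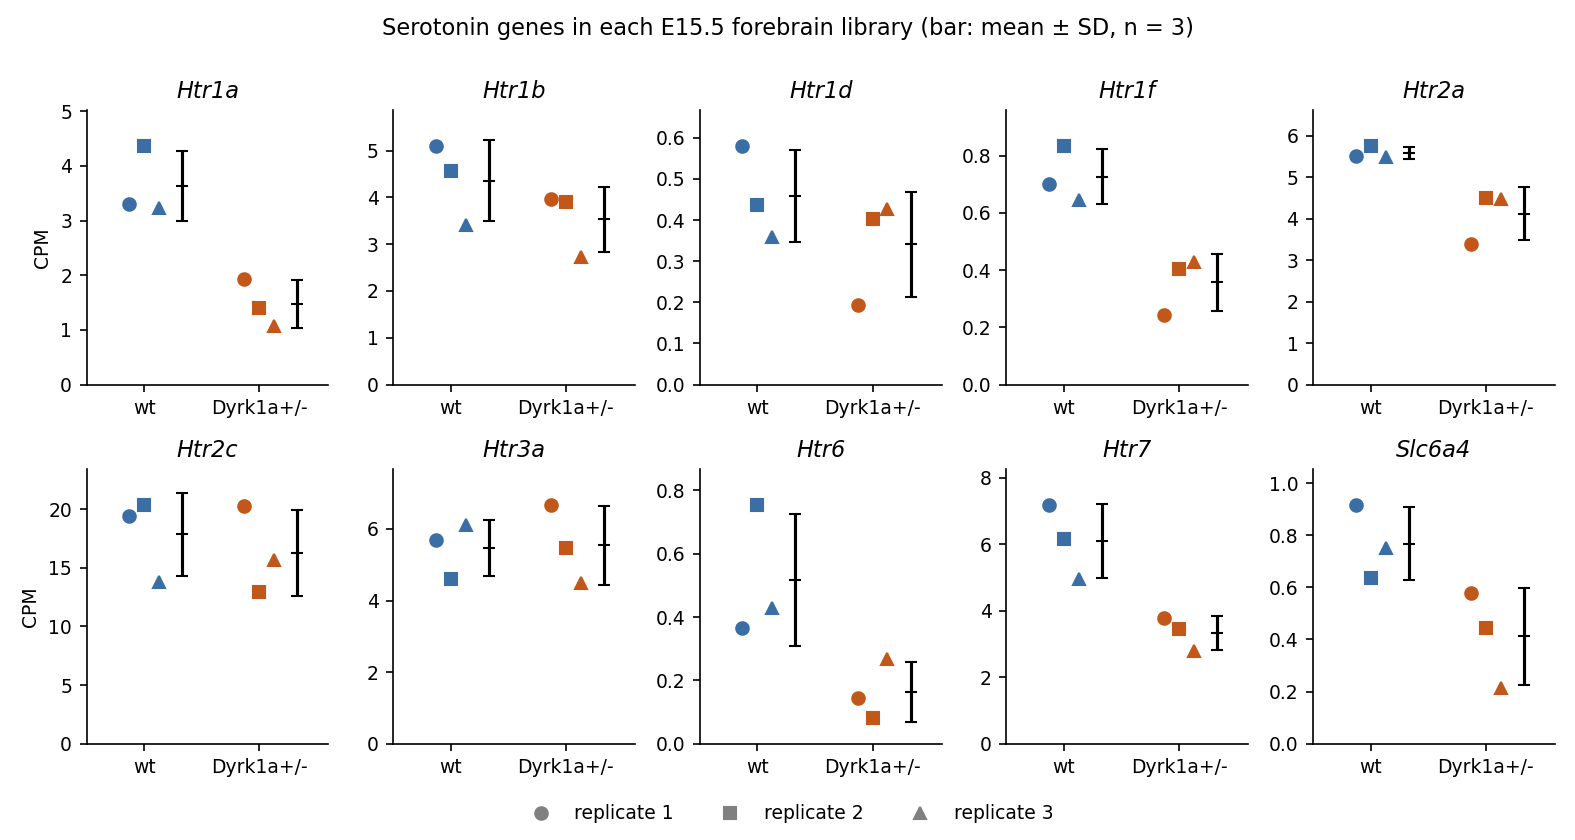
CPM of each serotonin gene in every library (y axis, linear from 0, scaled per gene), wt in blue and Dyrk1a+/- in orange, with marker shape giving the replicate and the bar the mean ± SD of 3 libraries. Htr1a, Htr1f, Htr2a, Htr6, Htr7 and Slc6a4 show no overlap, and Htr1b, Htr1d, Htr2c and Htr3a overlap.

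In the Htr2 class Htr2a and Htr2c differed in how far the genotypes lay apart. Htr2a, the Gq-coupled receptor of cortical pyramidal neurons and the target of classical hallucinogens, was at 5.52, 5.75 and 5.48 CPM in wt and 3.38, 4.51 and 4.48 CPM in heterozygotes. The wt libraries were tightly grouped (SD 0.146 CPM) and above every heterozygote, at a ratio of 0.738 (log2 fold change -0.44, SE 0.155). Htr2c, the receptor made in abundance by the choroid plexus and edited at the RNA level, was at 19.5, 20.3 and 13.8 CPM in wt and 20.2, 12.9 and 15.7 CPM in heterozygotes. Its groups overlapped (log2 fold change -0.14, SE 0.193), and within either genotype the library that stood apart from the rest was the lowest. Without Dyrk1a+/- replicate 2 its log2 fold change was 0.0082, a change of sign. The choroid plexus marker Ttr was at 352 ± 39.6 and 343 ± 79.6 CPM (wt and heterozygotes, SD, n = 3). By library it was at 327, 332 and 398 CPM in wt and 398, 379 and 252 CPM in heterozygotes. That order of libraries was not the one of Htr2c, and the part of choroid plexus in the Htr2c values was not tested.

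Htr3a, the channel subunit, had a log2 fold change near 0. It was at 5.71, 4.60 and 6.12 CPM in wt and 6.67, 5.47 and 4.48 CPM in heterozygotes (log2 fold change 0.016, SE 0.182), and its range with 1 library left out, -0.14 to 0.14, crossed 0. The markers of caudal ganglionic eminence interneurons Prox1 (59.8 ± 9.16 and 56.7 ± 5.14 CPM), Sp8 (16.4 ± 2.38 and 16.7 ± 3.09 CPM) and Nr2f2 (75.8 ± 6.93 and 85.8 ± 11.9 CPM) also overlapped between genotypes (SD, n = 3 each). Of the 10 tested markers of these cells 5 were below 0 and 5 above, with 1 lower and 1 higher at an unadjusted p under 0.05, 0 without wt replicate 2 and 5 without Dyrk1a+/- replicate 2. Npas1 was lower without overlap, at 4.02 ± 0.431 and 2.40 ± 0.785 CPM (log2 fold change -0.73, SE 0.244; edgeR, Benjamini-Hochberg adjusted p = 0.53), and Nr2e1 was at 23.5 ± 1.73 and 30.1 ± 5.86 CPM (0.36, SE 0.142; edgeR adjusted p = 0.592). The part of these cells in the Htr3a values was not tested.

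Of the receptors that raise cAMP, Htr7 was lower in all heterozygotes than in any wt library. Htr7, which adult studies place in thalamus, hippocampus and hypothalamus, lies on the minus strand of chromosome 19 at 35958734 to 36057507. It was at 7.17, 6.15 and 4.94 CPM in wt and 3.77, 3.46 and 2.77 CPM in heterozygotes, a ratio of 0.548 (log2 fold change -0.87, SE 0.188). Of all genes tested, at any level of expression, 0.763% had a lower log2 fold change. As for Htr1a, the gene was seen lower beforehand, so the rank tests nothing. Htr6, a receptor of the striatum and of migrating cortical neurons, was too low to pass the filter on low counts and was not tested. It had 12, 19 and 12 counts in wt and 3, 2 and 5 counts in heterozygotes, or 0.366, 0.754 and 0.430 against 0.145, 0.0805 and 0.267 CPM. Every heterozygote value of Htr6 was below every wt value, at a ratio of 0.318, but a count of 3 corresponds to 0.0915 to 0.16 CPM in these libraries, so the heterozygote values sit near that floor.

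Slc6a4, which carries serotonin back into the cell, was at 0.915, 0.635 and 0.752 CPM in wt and 0.580, 0.443 and 0.213 CPM in heterozygotes. The groups did not overlap, with wt replicate 2 and Dyrk1a+/- replicate 1 close together, and the ratio was 0.537 (log2 fold change -0.88, SE 0.38). The gene had 16 to 30 counts per wt library and 4 to 12 per heterozygote library. Without Dyrk1a+/- replicate 3, the lowest, the log2 fold change was -0.60. Of 10 thalamic markers 7 had a log2 fold change above 0 and 3 below (Prox1, Ntng1 and Calb2), and 0 passed by edgeR or were at an unadjusted p under 0.05. Their median was 0.084, and it ran from 0.0019 without wt replicate 3 to 0.17 without Dyrk1a+/- replicate 2; 5 were above and 5 below 0 without wt replicate 3 or without Dyrk1a+/- replicate 3. Gbx2 was at 7.05 ± 1.05 and 8.46 ± 1.29 CPM, and Tcf7l2 at 63.7 ± 10.3 and 80 ± 20.5 CPM, while Calb2 was at 31.2 ± 1.97 and 25.2 ± 5.01 CPM (SD, n = 3). For the 10 thalamic markers summed, wt libraries ran from 516 to 625 CPM and heterozygotes from 533 to 675 CPM. Of the serotonergic neuron markers, Lmx1b was at 2.27 ± 0.0399 and 2.76 ± 0.728 CPM, and Tph2, the neuronal enzyme that starts serotonin synthesis, was at the edge of detection. Tph2 had 10, 8 and 8 counts in wt and 0, 1 and 2 counts in heterozygotes; it did not pass the filter, and all heterozygote values lie under the floor of 3 counts.

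**Figure D3:**
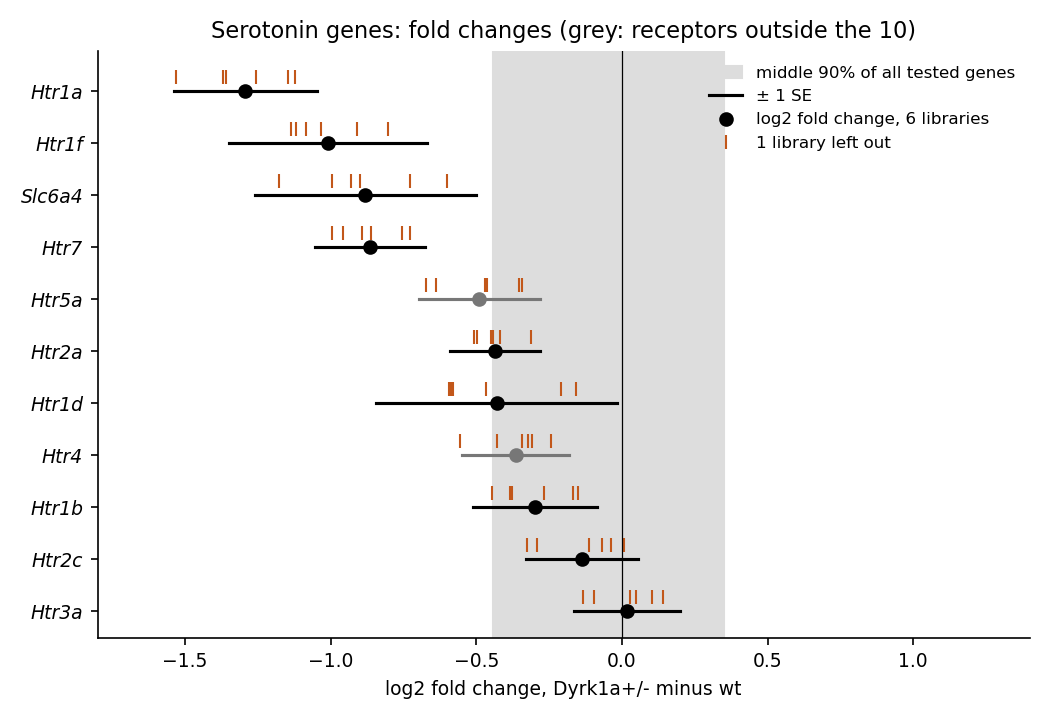
Log2 fold change, Dyrk1a+/- minus wt, of the 9 tested serotonin members (black) and of Htr4 and Htr5a (grey), with bars of ± 1 SE, orange ticks for fits with 1 library left out and a grey band for the middle 90% of all tested genes (-0.44 to 0.35). Htr1a, Htr1f, Slc6a4 and Htr7 lie to the left of the band, as does Htr5a, which is no member (-0.49), and Htr2c and Htr3a lie near 0.

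Taken by count, 8 of the 9 tested members had a log2 fold change below 0, where 48.8% of all genes tested did. Of all 10 members, 6 had every heterozygote below every wt library and 0 the reverse; 5 of these 6 were tested, and 7.49% of all tested genes were lower without overlap. The median log2 fold change of the tested members was -0.44, beside 0.0048 over all genes. By edgeR's quasi-likelihood test with Benjamini-Hochberg adjustment 0 members passed at 0.05, where 0.0103% of genes (2 of 19403) did, and an unadjusted p under 0.05 was found for 1528 genes. By DESeq2 1 member passed, Htr1a, where it called 0.17% of the genes it adjusted. Since the family was picked for lower values in this contrast, these counts and the DESeq2 call of Htr1a support nothing about it. Summed over the 10 members, CPM ran from 39.2 to 48.8 in wt and from 32.5 to 41.1 in heterozygotes, so the sums overlapped, and Htr2c alone gave 17.9 of the wt mean of 45.5 CPM.

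The differences were also taken apart by the pair of libraries that stood apart and the other 4. On the log2(CPM + 0.5) scale Htr1a differed by -0.96 within the pair and by -1.14 within the other 4 libraries. Htr7 differed by -0.46 and -0.93, Htr2a by -0.26 and -0.48, Htr1f by -0.34 and -0.61, Htr6 by -0.68 and -0.57, and Slc6a4 by -0.41 and -0.53. Htr1b turned sign, at 0.17 within the pair and -0.49 within the other 4, as did Htr1d, at 0.073 and -0.33, and Htr3a, at -0.15 and 0.087. Htr2c was at -0.094 and -0.16. The offset of 0.5 shrinks the differences of genes of low CPM, most for Htr1d, Htr1f, Htr6 and Slc6a4, and for Htr1a too. By edgeR on the other 4 libraries alone, without this offset, Htr1a was at -1.33 and Htr7 at -1.02. Values on this scale are therefore not to be set beside one another between genes.

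The 5 receptor genes outside the 10 had lower means in heterozygotes too, and neither of the 2 tested passed. Htr5a, an inhibitory receptor, was at 10.1, 8.92 and 6.70 CPM in wt and 7.58, 5.96 and 4.75 CPM in heterozygotes, which overlapped (log2 fold change -0.49, SE 0.206; edgeR, Benjamini-Hochberg adjusted p = 0.618). Htr4, coupled to adenylyl cyclase, was at 4.72 ± 0.365 and 3.67 ± 0.81 CPM (SD, n = 3; log2 fold change -0.36; edgeR adjusted p = 0.687). Htr5b had 13, 4 and 12 counts in wt and 2, 0 and 4 in heterozygotes, Htr3b 10 counts in all and Htr2b 2, and these 3 were not tested.

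Genes of serotonin synthesis, storage, uptake and breakdown spread about a median closer to 0; the difference from the receptors was not tested. Of 17 such genes 14 were tested, 11 had a log2 fold change below 0 and 3 above, and the median was -0.083. Without wt replicate 2 it was 8 below and 6 above, with a median of -0.045, and on the 4 libraries outside the pair 8 of 13 tested were below 0. By edgeR 0 passed over all genes, and 1 was at an unadjusted p under 0.05, lower, where 4.61% of all genes were; DESeq2 called none. That gene was Slc22a3, a low-affinity, high-capacity carrier of monoamines, at 0.915, 0.793 and 0.573 CPM in wt and 0.483, 0.282 and 0.0533 CPM in heterozygotes (log2 fold change -1.44, SE 0.515; edgeR, Benjamini-Hochberg adjusted p = 0.554). Slc18a2, the vesicular monoamine transporter, was at 32.9 ± 1.57 and 33.6 ± 3.45 CPM (SD, n = 3). Slc29a4, a further low-affinity carrier, was at 51.8 ± 4.18 and 51.2 ± 2.93 CPM. Maoa, the oxidase that degrades serotonin, was at 40.2 ± 3.95 and 35.7 ± 1.87 CPM, and Ddc, the decarboxylase of the last step of synthesis, at 6.14 ± 1.33 and 5.72 ± 0.61 CPM. Tph1, the peripheral synthesis enzyme, had 60 counts in all (log2 fold change -0.70, SE 0.431; edgeR adjusted p = 0.743).

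**Figure D4:**
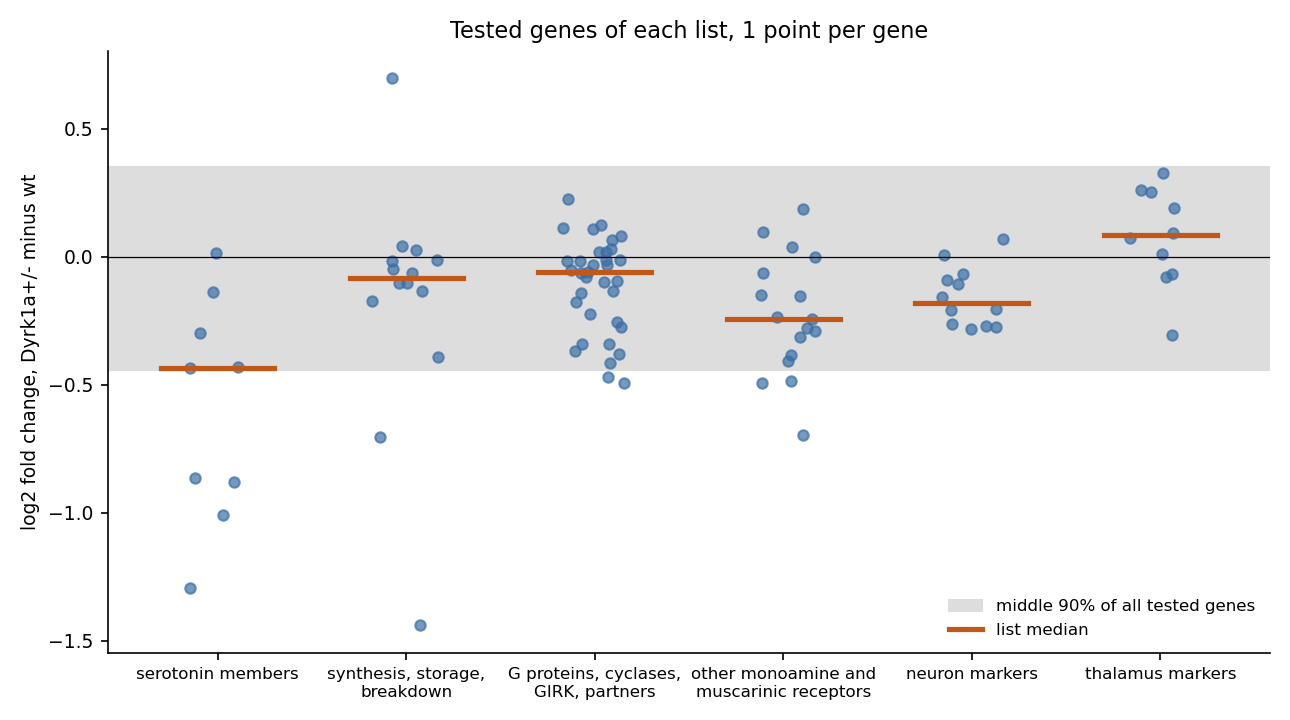
Log2 fold change, Dyrk1a+/- minus wt (y axis), of the tested genes of 6 lists, 1 point per gene, with the list median as an orange line and the middle 90% of all tested genes as a grey band. Medians are -0.44 for the serotonin members, -0.083 for synthesis to breakdown, -0.061 for receptor coupling, -0.24 for other monoamine and muscarinic receptors, -0.18 for neuron markers and 0.084 for thalamus markers.

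Downstream of the receptors, G proteins, cyclases, phospholipases, channels and partners were spread about a median log2 fold change of -0.061. All 34 listed genes were tested, 25 were below 0 and 9 above, and 0 passed edgeR's test over all genes or DESeq2's; at an unadjusted p under 0.05 were 9, all lower, where 4.61% of all genes were. That count was 4 without Dyrk1a+/- replicate 3 and 5 without wt replicate 1 or wt replicate 2. The lowest p values were those of the calcium-stimulated adenylyl cyclases Adcy1 (332 ± 24.7 and 236 ± 49.1 CPM; log2 fold change -0.49, SE 0.144) and Adcy8 (11 ± 0.667 and 8.26 ± 0.865 CPM; -0.41, SE 0.124) and of Gnal, the stimulatory G protein subunit of the striatum (82.5 ± 4.11 and 65.2 ± 9.31 CPM; -0.34, SE 0.107). Their edgeR Benjamini-Hochberg adjusted p values were 0.503, 0.503 and 0.522. The potassium channel subunits that Htr1a opens through G proteins, named after their values were seen, went both ways: Kcnj3 was at -0.22 and Kcnj6 at -0.27, while Kcnj9 was at 0.23 and Kcnj5 at 0.065. The inhibitory subunits of the list, also named after their values were seen, all overlapped between genotypes: Gnai1 was at 45.8 ± 9.25 and 36.2 ± 5.85 CPM (-0.34), Gnai2 at 155 ± 10.4 and 164 ± 9.17, Gnai3 at 133 ± 14.8 and 145 ± 16, Gnao1 at 186 ± 8.07 and 182 ± 12.8, and Gnaz at 61.8 ± 4.02 and 56.3 ± 2.75 CPM.

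Receptors for other monoamines and acetylcholine were mostly below 0 as well. Of 23 dopamine, adrenergic, muscarinic, histamine and trace amine receptor genes 17 were tested. Below 0 were 14 and above 3, where 48.8% of all genes tested were below 0, and their median was -0.24 on the log2 scale. By edgeR 0 passed over all genes, and DESeq2 called none. At an edgeR unadjusted p under 0.05 was 1, lower, where 4.61% of all genes were: Chrm3 (11.3 ± 0.676 and 9.19 ± 0.644 CPM; -0.29, SE 0.115; edgeR adjusted p = 0.591). Next by p were Hrh2 (-0.70, SE 0.317) and Chrm1 (-0.28, SE 0.129). Whether the serotonin members lay lower than these receptors was not tested. The dopamine transporter Slc6a3 was at 2.39 ± 0.835 and 1.63 ± 0.27 CPM, and the noradrenaline transporter Slc6a2, with 42 counts in all, was not tested.

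Summed levels of neuron and meningeal markers moved with genotype beside these genes, and so did the sums of some other lists. Sums of synthesis to breakdown genes (225 to 234 and 218 to 224 CPM in wt and heterozygotes) were lower without overlap, by a narrow margin. The same held for receptor coupling (3138 to 3229 and 2869 to 3127 CPM) and other monoamine and muscarinic receptors (73.3 to 81.7 and 64.1 to 71.5 CPM). Within the receptor coupling sums Adcy1 alone was at 332 ± 24.7 and 236 ± 49.1 CPM, and sums without it were not taken. Sums of the other serotonin receptors (12.29 to 14.89 and 8.38 to 12.32 CPM) and other monoamine transporters (33.7 to 38.5 and 32.5 to 39.2 CPM) overlapped. The 12 neuron markers summed to 6212 to 6707 CPM in wt and 5889 to 6058 CPM in heterozygotes, without overlap; 10 of 12 were below 0, the median log2 fold change was -0.18, and 5 were at an unadjusted p under 0.05, all lower, where 4.61% of all genes were. That count was 2 without Dyrk1a+/- replicate 3 and 3 without wt replicate 1 or wt replicate 2. The 9 meningeal markers summed to 489 to 572 CPM in wt and 412 to 458 CPM in heterozygotes, 7 below 0, and Ptgds, which had 32.6 ± 2.33 and 14.7 ± 1.57 CPM (SD, n = 3), passed (edgeR, Benjamini-Hochberg adjusted p = 0.0238). It was not called without wt replicate 1, wt replicate 2, Dyrk1a+/- replicate 1 or Dyrk1a+/- replicate 3. Radial glia markers went the other way, with 8 of 11 above 0, a median of 0.25 and 5 at an unadjusted p under 0.05, all higher, where 3.27% of all genes were; their sums overlapped, at 1125 to 1262 and 1189 to 1318 CPM. The 5 became 2 without wt replicate 1 and 3 without Dyrk1a+/- replicate 3, where the median was 0.15. Sums of striatal markers also overlapped, at 338 to 369 and 318 to 347 CPM, with 10 of 12 below 0, a median of -0.28 and 5 at an unadjusted p under 0.05, all lower, again beside 4.61% of all genes; without wt replicate 2 it was 3. Subplate and deep-layer markers went both ways: their sums overlapped (1028 to 1137 and 1021 to 1160 CPM), and 4 of 11 tested were below 0 (6 without wt replicate 3 and 8 without Dyrk1a+/- replicate 3). At an edgeR unadjusted p under 0.05 were 3 lower and 1 higher, beside 4.61% and 3.27% of all genes. Lmo7 was at 39.9 ± 4.52 and 22.3 ± 3 CPM without overlap (log2 fold change -0.84, SE 0.123; edgeR, Benjamini-Hochberg adjusted p = 0.317) and was called by DESeq2. Ccn2 (-0.80, SE 0.212; edgeR adjusted p = 0.483) and Crym (-0.52, SE 0.159; edgeR adjusted p = 0.516) were also lower without overlap, and Sox5 lay above 0 without overlap (0.19, SE 0.073; edgeR adjusted p = 0.588). Sums overlapped as well for caudal ganglionic eminence markers (1293 to 1395 and 1157 to 1393 CPM), choroid plexus markers (421 to 498 and 337 to 493 CPM) and hippocampal and hem markers (861 to 1014 and 892 to 987 CPM). Single genes weighed most in these sums, with wt means of 1001 CPM for Reln, 352 CPM for Ttr and 732 CPM for Zbtb20. Of 10 choroid plexus markers 7 were below 0 (3 without Dyrk1a+/- replicate 3), with a median of -0.05. Of 11 hippocampal and hem markers 9 were above 0, with a median of 0.22. Nr2f1 and Lmx1a were higher without overlap (edgeR adjusted p = 0.548 and 0.659). The 9 became 7 without wt replicate 1, Dyrk1a+/- replicate 2 or Dyrk1a+/- replicate 3. Markers of mast cells, platelets and red blood cells, cells that hold or meet serotonin, summed to 303 to 383 and 269 to 335 CPM, and the mast cell protease gene Cpa3 had 13 counts in all. The part of any of these lists in the serotonin genes' values was not tested.

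The genes closest to Htr1a and Htr7 over the 6 libraries were found by the root-mean-square distance between log2(CPM + 0.5) values centred on each gene's mean, among 16773 genes of at least 1 CPM. For Htr1a the nearest was the thyroid hormone deiodinase Dio2 (distance 0.183), followed by Lmo7, which is also on the list of subplate and deep-layer markers (0.193), and Prr16 (0.203). Dio2 was at 4.21, 4.64 and 4.26 CPM in wt and 1.88, 2.01 and 1.71 CPM in heterozygotes. Nearest to Htr7 were the collagen gene Col19a1 (0.0591), Necab1, a neuronal calcium-binding protein (0.0805), and the thrombospondin Thbs2 (0.0953). Col19a1 was at 11, 10.6 and 8.6 CPM in wt and 6.57, 5.84 and 5.07 CPM in heterozygotes, the same order of libraries as for Htr7. Htr1a and Htr7 were 0.246 apart from each other, further than any of these 6 genes from its partner. The genotype difference that chose Htr1a and Htr7 is part of this distance, so the lists are a description of 6 libraries.

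**Figure D5:**
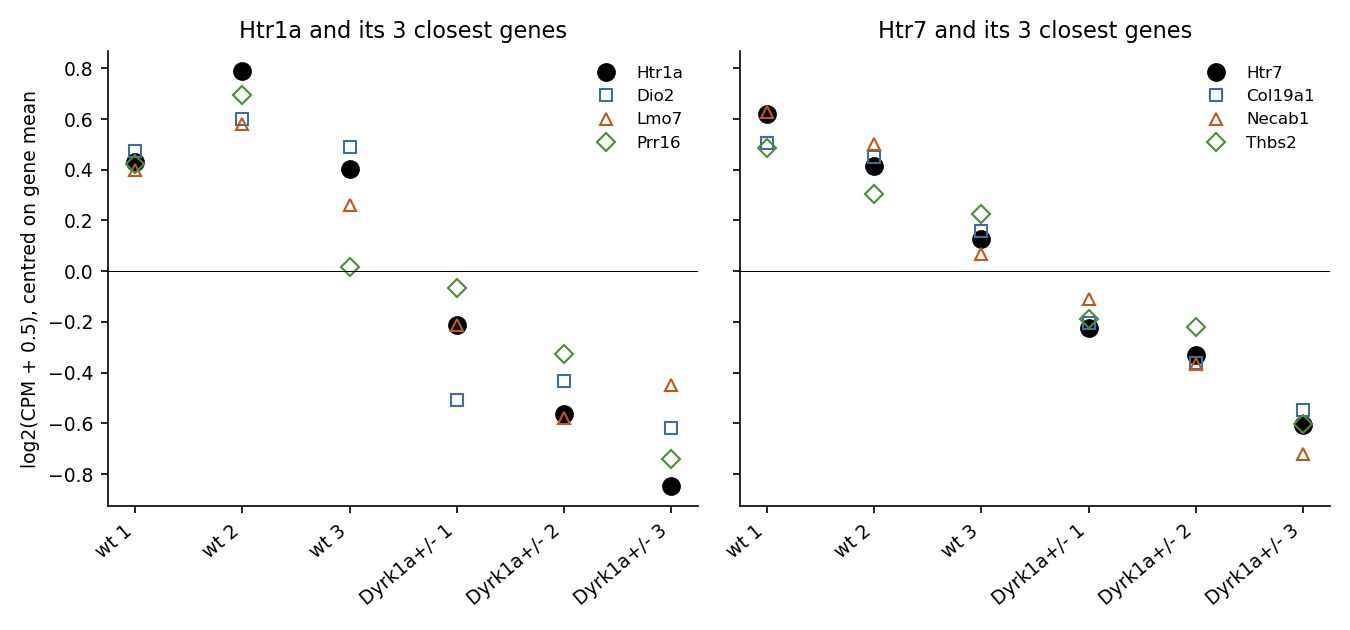
log2(CPM + 0.5) centred on the gene mean (y axis) in each of the 6 libraries (x axis) for Htr1a and Htr7 (filled circles) and the 3 closest genes of each (open symbols). Every wt point lies above every Dyrk1a+/- point within each gene shown, and the symbols of Col19a1 nearly cover those of Htr7.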

How the data were processed

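The deposited values were raw counts per Ensembl gene, 1 column per library, and columns were matched to samples by genotype and replicate number in the titles. The tools named, per the submitters' processing notes, are bcl2fastq 2.17.1.14, HISAT2, SAMtools 1.9 and HTSeq 0.9.1, with the build GRCm38/mm10. Which gene annotation and which strand option were used is not given in the sources used here. Per the labels' protocols, the kit was stranded total RNA with ribosomal depletion, while the molecule is given as polyA RNA. Of 33084 identifiers 32888 received a GENCODE M21 symbol; Taar1, Fev and Hoxa5 matched none and are not analysed here.

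The main test was that of edgeR 4.0.16 in R 4.3.3 (filterByExpr, TMM, quasi-likelihood test, genotype the only term), with Benjamini-Hochberg adjustment over 19403 genes and a threshold of 0.05. DESeq2 1.42.0 was an alternative. Log2 fold changes are Dyrk1a+/- minus wt; standard errors come from the quasi-likelihood F statistic. CPM uses all 6 libraries' effective sizes, so a count of 3 was worth 0.0915 to 0.16 CPM. That floor covers counting error only, since no molecular identifiers are named. On simulated counts of 19403 genes, edgeR called 56% of 1.5-fold and 80% of 2-fold planted changes. The changed genes were drawn from those above a low limit on mean count, and the library pair that stood apart was not simulated. Changes of 1.5- to 4-fold were planted in far more genes than were called in the real contrast, which eases the adjusted threshold. These shares thus do not describe the members of few counts, nor all of the real contrast. They also do not give how often a change in Htr1a or Htr7 would be called. Chi-square per degree of freedom between libraries was at least 4.55, so all 6 were kept as separate libraries.

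Members and lists were chosen with earlier results of these data known. Named are all members, the other serotonin receptors and synthesis genes, the 3 genes of lowest p in the other pathway lists, defining, most abundant and lowest-p markers, and the 3 genes nearest to Htr1a and to Htr7; exceptions are stated. Alternatives were size factors, filter, robust fit, replicate block, the library pair and leaving out each library.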

Additional observations from a re-analysis of the deposited data

How the results depend on the processing

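Genes called over the whole table numbered 2 in the reported fit, 27 by DESeq2, 4 with no low-count filter, 6 with a term for the library pair, 6 on the other 4 libraries alone, and 0 to 5 with 1 library left out: 0 without wt replicate 1, wt replicate 2, Dyrk1a+/- replicate 1 or Dyrk1a+/- replicate 3, and 5 without Dyrk1a+/- replicate 2. With replicate number as a block 0 were called by edgeR (1110 at an unadjusted p under 0.05). Residual correlations of same-numbered libraries were 0.243, -0.385 and -0.216, and 1 of 3 wt libraries correlated best with its own number. Wt replicate 3 and Dyrk1a+/- replicate 2, which stood apart, weigh on these correlations. They therefore cannot decide whether the numbers pair libraries. Genes called in the pathway lists were 0 in every fit run. The median log2 fold change of the 9 tested members was -0.44, the value of Htr2a. It ran from -0.60 to -0.39 with 1 library left out and was -0.74 on the other 4 libraries alone. Both -0.60 and -0.74 are values of Htr1d, a gene of 62 counts in all, which was the middle gene in those fits. The cause of shifts in single genes was not tested. With 1 library left out Htr1a ran from -1.53 to -1.12, Htr7 from -0.995 to -0.73, Htr1f from -1.14 to -0.80, Slc6a4 from -1.18 to -0.60, Htr2a from -0.51 to -0.31 and Htr1b from -0.45 to -0.15, while Htr2c and Htr3a crossed 0. Depth limits Htr1d, Htr1f, Htr6 and Slc6a4 most, at 30 counts or fewer per library.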
